A study of Mus musculus with 27 samples.

Results

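Most Platr genes (pluripotency-associated transcripts) make long noncoding RNAs (lncRNAs), and 7 of them, Platr2, Platr3, Platr4, Platr10, Platr14, Platr20 and Platr27, are described here across a time course of Dicer loss in mouse embryonic stem cells. They are 7 listed genes among the 38123 genes of the deposited tables, matched to symbols by Ensembl identifier. Of these, 6 had a row, and all 6 met the rule for use, a mean of at least 0.5 FPKM (fragments per kilobase of transcript, scaled to library size) in 1 of 9 groups of libraries. The members were thus chosen by their mean FPKM, from a list drawn up with earlier results of these data known, so their levels are a description and their counts are no independent support. Platr10 was matched to no row and is not analysed here beyond its sequence. The reference annotation holds 23 other Platr genes, 21 of them with a row and 18 of them at 0.5 FPKM in 1 group. Among these, Platr17 and Platr25 are annotated as protein-coding. Platr20 was the lowest of the listed genes, with 5.99 FPKM in its highest group. Nearest to the threshold were genes that are not listed, namely Platr16 just above it (0.682 FPKM in its highest group) and Platr9 (0.272) and Platr30 (0.262) just below it.

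As background, Platr lncRNAs were named for RNA that is abundant in mouse embryonic stem cells and declines as the cells leave pluripotency. Platr14 and Platr4 have been depleted in such cells in earlier work, with effects on differentiation genes, and Platr4 has been linked to mesendoderm formation. Dicer is the RNase III enzyme that cuts microRNA precursors into mature microRNAs. In mouse embryonic stem cells abundant microRNAs include those of the miR-290 and miR-302 clusters, which share a seed, the stretch of bases that pairs with target RNA.

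The cells were DTCM23/49 embryonic stem cells, an XY mouse line whose Dicer gene can be deleted, kept on gelatin with leukemia inhibitory factor and serum. The RNase III domain was removed by 800 nM of 4-hydroxytamoxifen, 0.1% ethanol served as control treatment, and colonies lacking Dicer were picked and expanded. The labels place day 0 before the deletion and the later days after it, and they name no ethanol library at a later day, so Dicer loss, drug, time and expansion cannot be told apart. Whole cell RNA was sequenced on day 0 and days 4, 8, 10 and 12 after it, and nuclear and cytoplasmic RNA, separated with the PARIS kit, at days 0 and 12. Each of the 9 groups held 3 libraries of polyadenylated RNA, 27 in all.

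Sums of FPKM were 275545 to 459891 per library, and the steps between low FPKM values put relative depth at 0.72 to 3.62, with whole cell day 0 at 3.07 or more and all other libraries at 1.81 or less. Nucleus day 0 replicate 3, nucleus day 12 replicate 1 and whole cell day 4 replicate 3 stood apart from their groups. Dicer1, the targeted gene, was at 15.01, 16.02 and 17.91 FPKM in whole cells at day 0, fell to 8.63%, 10.5% and 11.2% of that mean at days 4, 8 and 10, and was at 31.6% of day 0 in the nucleus and 13.6% in the cytoplasm at day 12. In whole cell libraries with the label day 12 it was at 16.7, 13.8 and 13.4 FPKM, 89.7% of day 0, which goes against their label. All 9 embryonic stem cell markers reached 0.5 FPKM in every group. Markers of other cell types were also measured and are given with the last results.

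The members lie on 4 chromosomes of the mouse genome (GRCm38, GENCODE M21). Platr3 (chromosome 2, 135648907 to 135652063, plus strand), Platr14 (chromosome 2, 104559163 to 104571429, plus strand) and Platr27 (chromosome 2, 157595583 to 157597320, minus strand) share chromosome 2. Platr4 (41484024 to 41493192, minus strand) and Platr10 (75647446 to 75655731, minus strand) lie on chromosome 3. Platr20 lies on chromosome 11 (51189833 to 51220418, minus strand) and Platr2 on chromosome 13 (65780905 to 65867305, plus strand). Platr14 is annotated as a processed transcript and the others as long intergenic RNAs. Their longest annotated transcripts run from 412 bases (Platr3) to 2161 bases (Platr4).

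Platr14 and Platr27 carry a related sequence in exon 1. Both are among the 4 members, with Platr3 and Platr4, that fell in whole cells and in both fractions, so falling together is not particular to this pair. Bases 92 to 243 of the longest Platr14 transcript (chr2:104559254-104559405, plus strand) and bases 76 to 223 of the Platr27 transcript (chr2:157597098-157597245, minus strand) were identical in 112 of 156 aligned columns, 71.8%. They are shown 5′ to 3′ with the identical bases in capitals.
Platr14: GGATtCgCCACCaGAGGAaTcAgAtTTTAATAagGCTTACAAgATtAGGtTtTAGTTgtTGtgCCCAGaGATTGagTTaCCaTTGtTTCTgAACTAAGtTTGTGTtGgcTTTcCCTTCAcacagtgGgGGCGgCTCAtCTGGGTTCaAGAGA
Platr27: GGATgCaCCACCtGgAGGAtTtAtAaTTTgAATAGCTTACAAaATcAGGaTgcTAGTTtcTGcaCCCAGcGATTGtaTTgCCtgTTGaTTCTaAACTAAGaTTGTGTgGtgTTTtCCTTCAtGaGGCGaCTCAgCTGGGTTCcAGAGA

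The first 68 bases of the same Platr14 transcript (chr2:104559163-104559230) aligned in turn with the start region of Platr3 in RefSeq, which places the Platr3 start upstream of the GENCODE model (chr2:135646506-135646572, plus strand, GRCm38.p6). They were identical in 57 of 70 columns, 81.4%, shown again with identical bases in capitals.
Platr14: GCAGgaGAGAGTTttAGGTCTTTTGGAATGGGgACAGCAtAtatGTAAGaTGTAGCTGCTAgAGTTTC
Platr3: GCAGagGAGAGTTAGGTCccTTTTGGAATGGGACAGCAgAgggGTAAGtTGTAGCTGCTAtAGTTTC

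These alignments came from a comparison of 11 sequences of the listed genes (7 transcripts and 4 RefSeq start regions). The same comparison aligned bases 2039 to 2156 of the longest Platr4 transcript with bases 899 to 1021 of that of Platr10. They were identical in 92 of 124 columns, 74.2%, so shared runs were not confined to Platr14, Platr27 and Platr3. Sequence related to the 152 bases of Platr14 was found in transcripts of 10 of 10155 lncRNA genes of the annotation (0.0985%), Platr14 and Platr27 included. Of these genes 5 had a row in the files, and 3 were tested in whole cells. At day 10, Platr14 and Platr27 were lower than at day 0, and the third, 4632415L05Rik, was higher (log2 change 1.06, limma adjusted p = 0.00904). These 3 genes thus did not share a direction of change.

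MicroRNA sites were looked for in the same transcripts, since the loss of Dicer removes the mature microRNAs. The seed (bases 2 to 8, in capitals) that miR-294 and miR-302b share differs from that of let-7, as the mature sequences from RefSeq (GRCm38.p6) show.
miR-294-3p: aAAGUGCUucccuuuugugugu
miR-302b-3p: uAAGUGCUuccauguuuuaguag
miR-93-5p: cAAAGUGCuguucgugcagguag
let-7a-5p: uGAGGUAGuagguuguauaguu

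The site that pairs with their seed, AGCACTT, was in 0 of 14 annotated transcripts of the 6 measured members, and the site of miR-93 and miR-20a, GCACTTT, in 0 of 14. The let-7 site, CTACCTC, was in 2 of 14, a shorter isoform each of Platr14 and Platr4. Among lncRNA transcripts of like length (within 20%), AGCACTT was in 4.2% for Platr3 and 19.3% for Platr4, the shortest and the longest members. GCACTTT was in 2.3% and 11.8%, and CTACCTC in 2.6% and 20.7%. These shares are over the longest transcript of each gene, and the longest transcripts of the 6 measured members held none of these sites. The 14 transcripts are isoforms that can share sequence, 6 of them of Platr14, so they are not 14 independent searches. Sites were searched on the transcript strand alone; AGCACTT and GCACTTT can overlap.

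RefSeq start regions (250 bases before and 50 after the start) were held for Platr3, Platr10, Platr14 and Platr20, 4 of 7. They were searched on both strands for the Oct octamer core ATGCAAA (in 4.59% of 27025 start regions), the Sox core AACAATG (3.87%), the Esrrb core AAGGTCA (4.66%) and the TATA box TATAAA (14.16%). The 1 match among the 4 regions was a Sox core on the reverse strand of Platr14, inside the run shown above, and the aligned run of Platr27 does not hold it. The Platr14 region (chr2:104559209-104559508) lies downstream of the start of its GENCODE model (104559163), so the sequence upstream of that start was not searched.

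In whole cells Platr14, Platr3, Platr4 and Platr27 fell between day 4 and day 8 after the deletion and stayed low at day 10. Against day 0, 5 of 6 members were lower at day 8 and 0 higher, where 9.62% of all genes were called lower and 20.2% higher by limma at an adjusted p under 0.05. At day 10, 4 of 6 were lower and 0 higher, where 16% of all genes were lower and 27.7% higher. The median log2 change over the 6 members was -1.13 at day 8 and -1.52 at day 10, beside 0.0585 and 0.0877 over all 15991 genes tested. Changes are on the scale log2(FPKM + 0.5), which understates the change of low genes. In these bulk libraries, fewer cells with an RNA and less RNA per cell cannot be told apart.

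**Figure D1:**
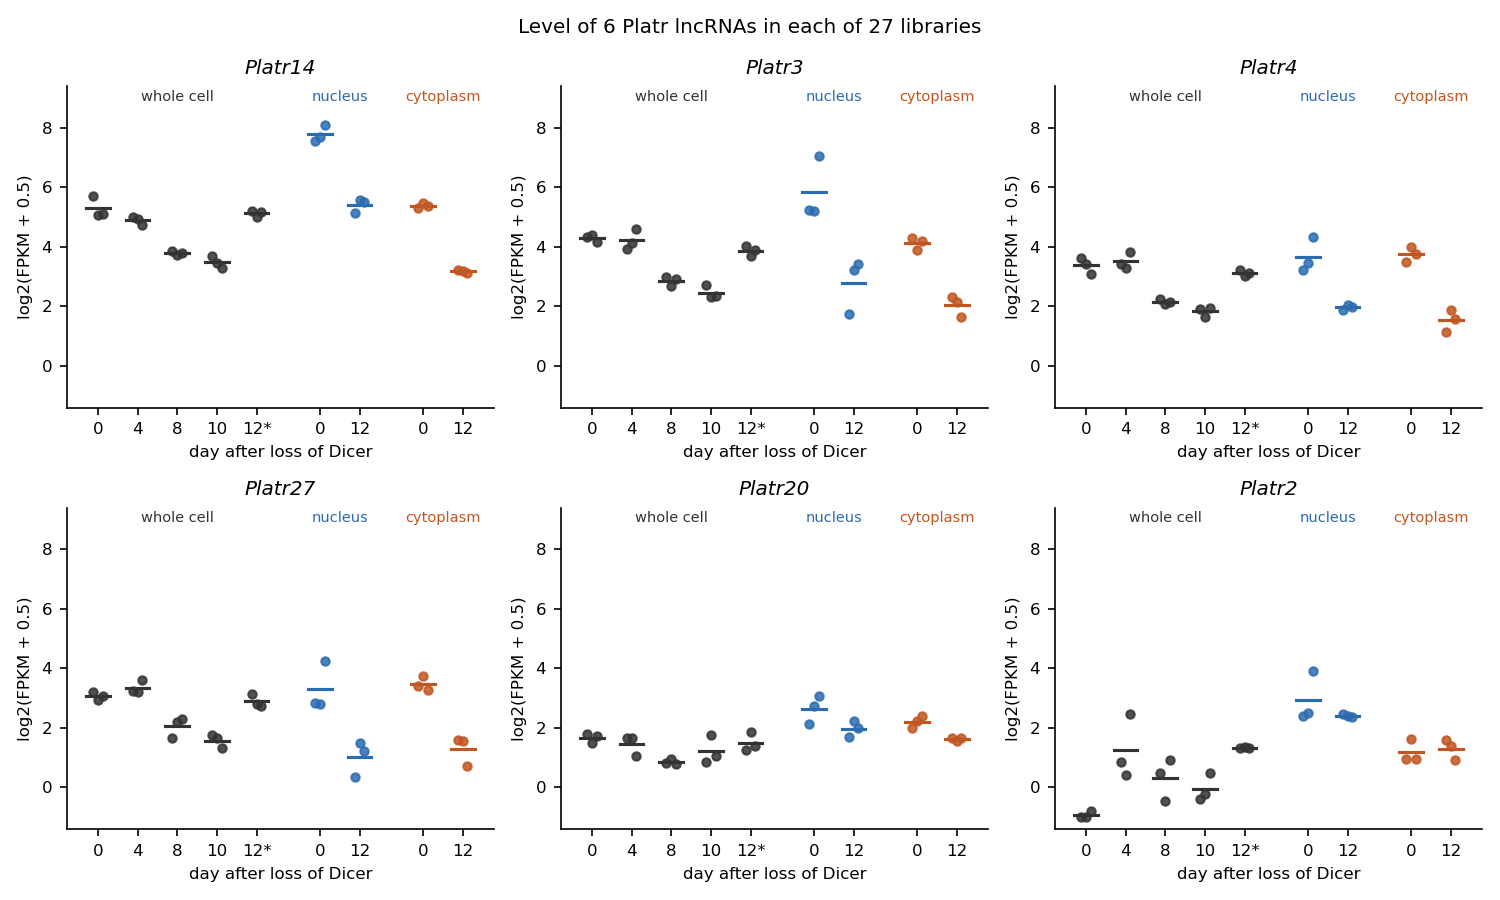
Level of each member on the scale log2(FPKM + 0.5) in every library, by day, for whole cells (black), nucleus (blue) and cytoplasm (orange). Points are libraries, bars are means of the 3 log2 values, and the asterisk marks the whole cell libraries labelled day 12, whose Dicer1 level goes against the label. Platr14, Platr3, Platr4 and Platr27 step down between days 4 and 8, and Platr2 is lowest in whole cells at day 0.

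Platr14 was the most abundant member in every group. In whole cells it stood at 52.05, 33.4 and 33.5 FPKM at day 0, 31.5, 30.2 and 25.9 at day 4, 14.1, 12.7 and 13.3 at day 8, and 12.45, 10.45 and 9.21 at day 10. Every library of days 8 and 10 lay below every library of days 0 and 4. The mean at day 10 was 27% of day 0, a log2 change of -1.82 ± 0.16 (SE, adjusted p = 1.45e-06), after -1.50 at day 8 (adjusted p = 1.58e-05) and -0.41 at day 4 (adjusted p = 0.176). The day 0 libraries did not overlap those of day 4, although the day 4 difference missed the threshold.

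Platr3 kept its level to day 4 and then dropped. It was at 19.65, 20.5 and 17.6 FPKM at day 0, 14.8, 16.8 and 23.7 at day 4, 7.47, 5.87 and 7.14 at day 8, and 6.13, 4.45 and 4.55 at day 10. Days 0 and 4 overlapped, and every later library up to day 10 was lower than all of them. On the log2 scale Platr3 changed by -1.44 ± 0.17 at day 8 (SE, adjusted p = 4.02e-05) and -1.84 ± 0.17 at day 10 (SE, adjusted p = 2.32e-06), the mean at day 10 being 26.2% of day 0.

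Platr4 and Platr27 followed the same course at lower levels. Platr4 was at 12.0, 10.1 and 8.08 FPKM at day 0, 10.3, 9.22 and 13.5 at day 4, 4.21, 3.68 and 3.88 at day 8, and 3.27, 2.60 and 3.33 at day 10. Platr27 was at 8.72, 7.07 and 7.86 FPKM at day 0, 9.03, 8.72 and 11.6 at day 4, 2.69, 4.03 and 4.44 at day 8, and 2.90, 2.62 and 1.99 at day 10. In both genes the libraries of days 8 and 10 lay below all libraries of days 0 and 4. By day 10 Platr4 had changed by -1.55 ± 0.16 (SE, adjusted p = 4.48e-06) and Platr27 by -1.49 ± 0.18 (SE, adjusted p = 2.54e-05) on the log2 scale.

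The step lay between days 4 and 8. Against day 4, 4 of 6 members were lower at day 8, where 6.72% of all genes were, and 5 of 6 were lower at day 10, where 14.2% were. The fifth at day 10 was Platr2 (-1.28, adjusted p = 0.0408), at -0.67 (adjusted p = 0.139) without day 4 replicate 3. That call ended under 13 of 24 alternatives, with an adjusted p of 0.0673 with no filter and 0.157 with only these groups in the fit. The 4 lower at day 8 were Platr14 (-1.09, adjusted p = 0.000582), Platr3 (-1.35, adjusted p = 0.000224), Platr4 (-1.36, adjusted p = 0.000107) and Platr27 (-1.299, adjusted p = 0.000461). At day 4 itself, against day 0, 1 of 6 was called, Platr2, which was higher, where 4.88% of all genes were higher. Comparisons that share the day 0 or the day 4 libraries are not independent of each other. The F-test over the 5 whole cell days called 5 of 6 members, where 54.2% of all genes were called, and Platr20 was the exception (adjusted p = 0.0702). Platr2 was near 0 at day 0 and entered this fit through the later days alone. A difference from day 0 was thus built in for Platr2, in the F-test as well.

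Platr20 moved least. It was at 2.94, 2.29 and 2.84 FPKM in whole cells at day 0, 2.63, 2.68 and 1.56 at day 4, 1.28, 1.46 and 1.23 at day 8, and 1.301, 2.89 and 1.59 at day 10. The day 8 libraries lay below those of day 0 without overlap, whereas replicate 2 of day 10 lay within them. On the log2 scale it differed from day 0 by -0.80 ± 0.24 at day 8 (SE, adjusted p = 0.0216) and -0.44 ± 0.24 at day 10 (SE, adjusted p = 0.154). The day 8 call ended when day 0 replicate 1 (adjusted p = 0.0758), day 0 replicate 3 (0.0663), day 8 replicate 1 (0.0598) or day 8 replicate 3 (0.0663) was left out. Without day 10 replicate 2 the day 10 change was -0.71 (adjusted p = 0.0227).

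Platr2 went the other way and is uncertain. It was listed at 0, 0 and 0.0818 FPKM in whole cells at day 0, the deepest libraries, and at 1.297, 0.831 and 5.04 FPKM at day 4, 0.886, 0.232 and 1.41 at day 8, and 0.269, 0.352 and 0.901 at day 10. No later library overlapped day 0, and day 4 replicate 3 was the highest. Its difference on the log2 scale was 2.17 ± 0.46 at day 4 (SE, adjusted p = 0.00987), a size that depends on the pseudocount, with 3.95 at a pseudocount of 0.1 FPKM, and with day 0 and day 4 alone in the fit the call ended (adjusted p = 0.105). Platr2 passed the filter in whole cells through the later days alone, so a difference from day 0 was built in. At day 8 it missed the threshold (1.25, adjusted p = 0.0552), and without day 4 replicate 3 it passed (adjusted p = 0.00555).

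The Platr2 transcript (521 bases) is 96.0% identical over its whole length to that of 2410141K09Rik, so reads may have been divided between these copies. 2410141K09Rik was at 3.83, 3.65 and 2.86 FPKM in whole cells at day 0, and between 6.68 and 11.043 FPKM in the other whole cell libraries, so it was also lowest at day 0. In the fractions at day 0, by contrast, Platr2 was at 4.76, 5.13 and 14.4 FPKM in the nucleus and 1.44, 2.60 and 1.44 in the cytoplasm. A gene at or near 0 in whole cells and above 1 FPKM in both fractions of the same day is a mismatch between the 2 sets of libraries, whose cause was not tested.

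**Figure D2:**
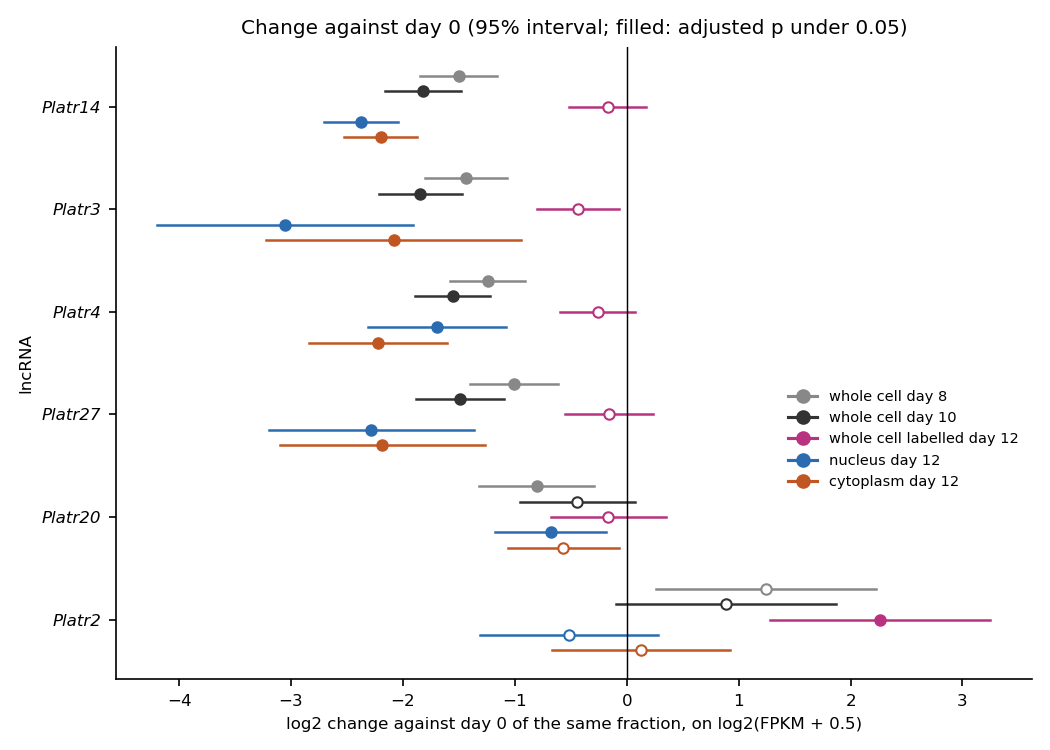
Log2 change of each member against day 0 of the same kind of library, on log2(FPKM + 0.5), with 95% intervals from limma; filled points have an adjusted p under 0.05. For Platr14, Platr3, Platr4 and Platr27 the whole cell libraries labelled day 12 (pink) sit between -0.43 and -0.16, while both fractions of day 12 sit at -1.70 or lower.

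In the whole cell libraries labelled day 12, where Dicer1 was near its day 0 level, Platr14, Platr4, Platr27 and Platr20 overlapped day 0, Platr3 lay below it and Platr2 above it. Against day 0, 1 of 6 was called, Platr2 (2.27 ± 0.46 SE, adjusted p = 0.00536), where 10.2% of all genes were higher. As above, Platr2 passed the filter through the later days alone, so a difference from day 0 was built in. Its size was 4.12 at a pseudocount of 0.1 FPKM and 1.56 at 1. Platr14 was at 36.4, 31.25 and 35.8 FPKM (-0.17, 95% interval -0.51 to 0.17), Platr3 at 15.95, 12.3 and 14.3 FPKM (-0.43, -0.80 to -0.07, adjusted p = 0.116), Platr4 at 8.88, 7.58 and 8.25 FPKM (-0.26, -0.59 to 0.08) and Platr27 at 8.40, 6.52 and 6.23 FPKM (-0.16, -0.55 to 0.24). Leaving out whole cell day 4 replicate 3 brought Platr3 past the threshold (adjusted p = 0.0254), and so did a fit of these 2 groups alone (adjusted p = 0.0234). Against day 10, 5 of 6 members were higher in the libraries labelled day 12, where 20.6% of all genes were, led by Platr14 (1.65 ± 0.16 SE, adjusted p = 4.25e-06) and Platr3 (1.41 ± 0.17 SE, adjusted p = 2.65e-05). The Platr2 call among these (1.38, adjusted p = 0.0248) ended when any of 5 single libraries of the 2 groups was left out (adjusted p of 0.0528 to 0.0835). Of 6 microRNA target genes, 6 were higher than day 0 at day 10 and 1 in the libraries labelled day 12. Among them the Hippo kinase gene Lats2 was at 0.655 ± 0.094 FPKM (SD, n = 3) at day 0, 8.50 ± 0.21 at day 10 and 0.901 ± 0.048 in those libraries.

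The fractions of day 12, whose Dicer1 was low, showed the lower levels. In the cytoplasm 4 of 6 members were lower than at day 0 and 0 higher, where 16.6% of all genes were lower and 16% higher, with a median log2 change of -2.13 over the 6 beside -0.00764 over all 17124 genes tested. In the nucleus 5 of 6 were lower and 0 higher, where 21.6% were lower and 15.1% higher, with a median of -1.99 beside -0.0953.

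Platr14 went in the cytoplasm from 39.2, 43.5 and 41.0 FPKM to 8.93, 8.67 and 8.15 (-2.20 ± 0.15 SE, adjusted p = 4.85e-06), and in the nucleus from 186.6, 205.6 and 270.9 FPKM to 34.9, 46.6 and 44.4 (-2.38 ± 0.15 SE, adjusted p = 3.89e-06). The 2 days did not overlap in either fraction, and the means at day 12 were 20.8% and 19% of day 0.

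Platr3 went in the cytoplasm from 18.96, 14.5 and 17.6 FPKM to 4.46, 3.94 and 2.64 (-2.08 ± 0.52 SE, adjusted p = 0.0104). In the nucleus it went from 37.55, 36.35 and 132.5 FPKM to 2.83, 8.72 and 10.1 (-3.05 ± 0.52 SE, adjusted p = 0.00136). The high nuclear value at day 0 and the low one at day 12 come from the pair of libraries that stand apart. Without both of them the nuclear change was -1.92 (adjusted p = 6.24e-05), and the days did not overlap with or without them.

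Platr4 fell in the cytoplasm from 10.8, 15.6 and 13.04 to 1.69, 3.19 and 2.48 FPKM (-2.23 ± 0.28 SE, adjusted p = 0.000195), and in the nucleus from 8.72, 10.5 and 19.8 to 3.16, 3.65 and 3.47 FPKM (-1.70 ± 0.28 SE, adjusted p = 0.00113). Platr27 fell in the cytoplasm from 10.0, 12.9 and 9.15 to 2.51, 2.42 and 1.15 FPKM (-2.19 ± 0.42 SE, adjusted p = 0.00242), and in the nucleus from 6.68, 6.43 and 18.5 to 0.774, 2.29 and 1.81 FPKM (-2.28 ± 0.42 SE, adjusted p = 0.00202). Without both nuclear libraries that stand apart, the nuclear change of Platr27 was -1.48 (adjusted p = 0.00166). For both genes all libraries of day 12 lay below all of day 0 in the same fraction.

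Platr20 was called in the nucleus (from 3.89, 6.15 and 7.93 to 2.71, 4.22 and 3.45 FPKM, -0.68 ± 0.23 SE, adjusted p = 0.0366) and missed the threshold in the cytoplasm (from 3.48, 4.19 and 4.71 to 2.68, 2.44 and 2.69 FPKM, -0.57 ± 0.23 SE, adjusted p = 0.0785). The nuclear days overlapped and the cytoplasmic days did not. The nuclear call ended under 13 of 21 alternatives, with an adjusted p of 0.182 without both nuclear libraries that stand apart, and the cytoplasmic change passed in a fit of its 2 groups alone (adjusted p = 0.00312). Platr2 was not called in either fraction (nucleus -0.52, 95% interval -1.31 to 0.28, and cytoplasm 0.13, -0.67 to 0.92).

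Platr14, Platr2 and Platr3 were higher in the nucleus than in the cytoplasm at day 0, 3 of 6 members, where 25.3% of all genes were. FPKM is relative within a library, so this compares shares of each fraction's RNA, and the median of all genes in this comparison was itself 0.116. Platr14 had 5.36 times the cytoplasmic mean in the nucleus (2.39 ± 0.15 SE on the log2 scale, adjusted p = 2.47e-06), Platr2 had 4.43 times (1.75 ± 0.36 SE, adjusted p = 0.00302) and Platr3 4.05 times (1.72 ± 0.52 SE, adjusted p = 0.0216). The Platr3 call held without both nuclear libraries that stand apart (1.105, adjusted p = 0.000612), and it ended without nucleus day 0 replicate 3 alone (1.105, adjusted p = 0.0523), without cytoplasm day 0 replicate 2 (adjusted p = 0.0687) and without cytoplasm day 0 replicate 3 (adjusted p = 0.0524). Platr4 (-0.09, 95% interval -0.70 to 0.53) and Platr27 (-0.18, -1.09 to 0.74) had nuclear means of 0.99 and 0.984 times the cytoplasmic ones, with wide intervals, and Platr20 was at 0.45 (-0.05 to 0.95). Without both nuclear libraries that stand apart, Platr27 was called lower in the nucleus (-0.65, adjusted p = 0.0452) and Platr4 was at -0.42 (adjusted p = 0.109).

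For comparison, the nuclear lncRNAs Malat1 and Neat1 were higher in the nucleus by 4.01 ± 0.38 and 2.02 ± 0.20 (SE) on the log2 scale at day 0, and the mRNAs of the pluripotency factors Pou5f1 and Sox2 were lower there, by -0.92 ± 0.26 and -1.05 ± 0.15. Platr14 thus had a log2 difference between those of Neat1 and Malat1. Of 11 lncRNAs outside the Platr family studied in stem cells, 9 were higher in the nucleus. Malat1 and Neat1 are themselves on that list and among those higher, so the count is not separate from them. Of 1456 annotated lncRNAs tested, 35.3% were higher and 8.9% lower.

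**Figure D3:**
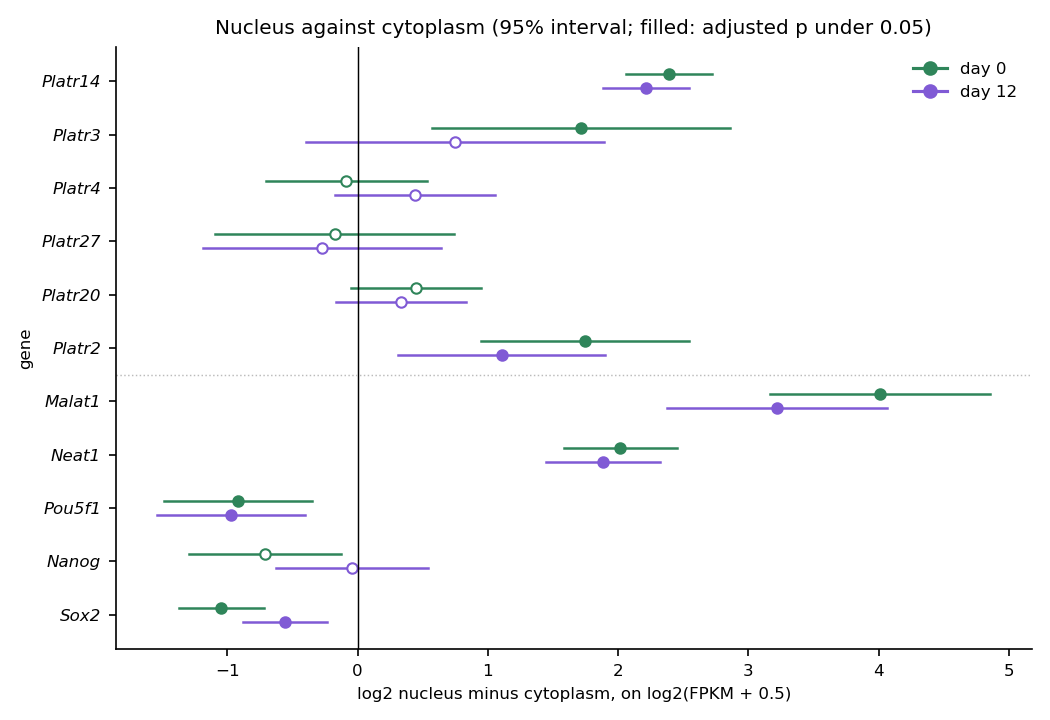
Log2 difference between nucleus and cytoplasm at day 0 (green) and day 12 (purple) with 95% intervals, for the 6 members above the dotted line and 5 reference genes below it; filled points have an adjusted p under 0.05. Platr14 lies above 2 on both days, and Platr4, Platr27 and Platr20 have intervals that hold 0 on both.

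At day 12, 2 of 6 members were higher in the nucleus, where 18.4% of all genes were, namely Platr14 (2.22 ± 0.15 SE, adjusted p = 8.93e-06) and Platr2 (1.11 ± 0.36 SE, adjusted p = 0.0361). The Platr2 call ended when any of 5 single libraries was left out (adjusted p of 0.0719 to 0.127). Platr3 was at 0.75 (95% interval -0.40 to 1.89). Without both nuclear libraries that stand apart, 4 of 6 were called, with Platr3 at 1.27 (adjusted p = 3e-04). The change of the ratio from day 0 to day 12 was called in 0 of 6 members by limma, and in 0 at an unadjusted p under 0.05, where 1.33% of all genes were called. Its intervals were wide for Platr3 (-0.97, -2.58 to 0.65) and narrow for Platr14 (-0.17, -0.64 to 0.29), and without the libraries that stand apart Platr4 passed (0.91, adjusted p = 0.039).

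The change to day 12 itself differed between whole cells and fractions. In a fit of all 27 libraries, the change in the whole cell libraries labelled day 12 exceeded that in the cytoplasm in 5 of 6 members, where 19.1% of all genes were higher, and that in the nucleus in 5 of 6, where 24% were higher and the median of all genes was 0.169. Platr14 differed by 2.03 ± 0.22 (SE, adjusted p = 6.94e-07) from the cytoplasm and by 2.20 ± 0.22 (SE, adjusted p = 2.99e-07) from the nucleus. The smallest difference called was that of Platr4 from the nucleus (1.44, adjusted p = 0.00163). Platr20 did not pass in either (0.40, 95% interval -0.30 to 1.11, and 0.52, -0.19 to 1.22).

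Ordered by mean level over the 9 groups, Platr14 ran from the nucleus at day 0 (221 ± 44.2 FPKM, SD, n = 3) through the nucleus at day 12 (42.0 ± 6.20), the cytoplasm at day 0 (41.3 ± 2.16), whole cells at day 0 (39.7 ± 10.7), the libraries labelled day 12 (34.5 ± 2.81), day 4 (29.2 ± 2.92), day 8 (13.4 ± 0.71) and day 10 (10.7 ± 1.63) to the cytoplasm at day 12 (8.58 ± 0.39). Of the 8 neighbouring pairs in this order, 4 overlapped, all from the nucleus at day 12 down to day 4. For Platr3, Platr4 and Platr2, 6 of 8 neighbouring pairs overlapped, for Platr27 7 of 8, and for Platr20 8 of 8. The nucleus at day 0 was highest for Platr14, Platr3, Platr20 and Platr2, and the cytoplasm at day 0 for Platr4 and Platr27, by margins within the spread. The lowest group was the cytoplasm at day 12 for Platr14, Platr3 and Platr4, the nucleus at day 12 for Platr27, whole cells at day 8 for Platr20 and whole cells at day 0 for Platr2.

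Across the 15 whole cell libraries, which share their day structure, the members' log2 levels correlated as follows, given as a description. Pearson's r was 0.979 between Platr3 and Platr4, 0.943 between Platr4 and Platr27, 0.942 between Platr3 and Platr27 and 0.924 between Platr3 and Platr14. It was 0.922 between Platr4 and Platr14, and lowest among these 4 genes between Platr14 and Platr27, at 0.884. Platr20 had r of 0.442 to 0.608 with these 4, and Platr2 had r of -0.216 to 0.259 with the other 5. Among 10357 other genes, those most like Platr14 were Pebp1 (r = 0.978), Pabpc4 (0.963) and Enpp2 (0.963), and those most like Platr3 were Nras (0.979), Plac8 (0.961) and Dctpp1 (0.953). Dctpp1 (0.960) and Plac8 (0.959) were also among the 3 most like Platr4, with Mrpl24 (0.959). Platr27 was most like Wdr55 (0.964), Crym (0.953) and Spry1 (0.944), Platr20 like Grk6 (0.835), E2f4 (0.818) and Surf6 (0.815), and Platr2 like Smc3 (0.937), Wiz (0.931) and Adi1 (0.901). Dctpp1, a nucleotide pyrophosphatase gene, fell in mean level from 220 to 81.6 FPKM between days 0 and 10 and was at 211 in the libraries labelled day 12.

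Of 11 tested protein-coding neighbours of the measured members, 3 were higher and 0 lower by limma at day 10, with 0 lower at an unadjusted p under 0.05 as well. The share higher is near that of all genes (27.7%), so the count itself is no result about the neighbours. Hipk3, a kinase gene 64717 bases from Platr14, was at 2.56 ± 0.23 FPKM (SD, n = 3) at day 0 and 10.4 ± 0.86 at day 10, a log2 change of 1.84 ± 0.10 (SE, adjusted p = 1.61e-08), while Platr14 fell. Cstf3, a polyadenylation factor gene on its other side, was at 0.12 (95% interval -0.08 to 0.32). Blcap, 24309 bases from Platr27, rose by 1.25 ± 0.12 (SE, adjusted p = 3.67e-06), and Ctnnbl1 on the other side was at -0.04 (-0.20 to 0.13). Plcb4, a phospholipase gene 6948 bases from Platr3, was at 0.34 (-0.02 to 0.70), and Jade1 and Pgrmc2 beside Platr4 were at 0.19 and 0.18, none of them called. Gm12569, which begins 55 bases from Platr20, was at -0.21 (-1.19 to 0.76). Gm10324 beside Platr2 was higher (1.23 ± 0.26 SE, adjusted p = 0.00208). Platr4 overlaps the pseudogene Gm6069 on the other strand, and the strand setting of the authors' counting is not given in the sources used here, so their reads cannot be told apart.

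**Figure D4:**
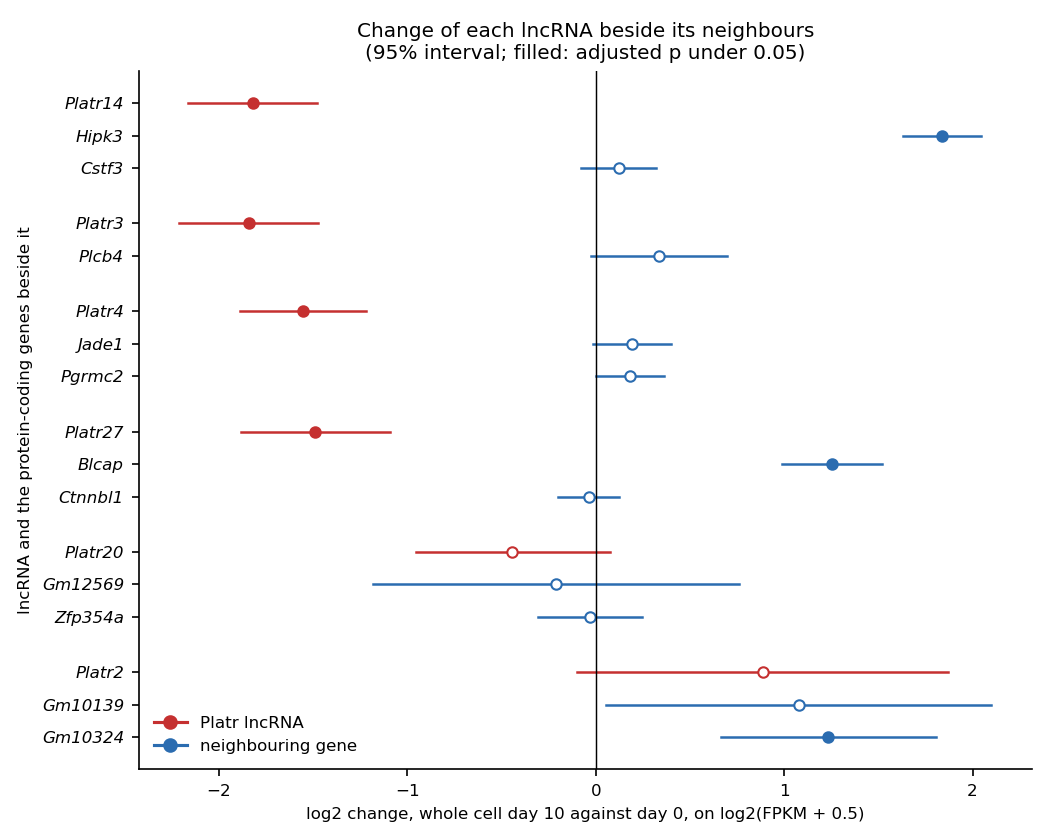
Log2 change in whole cells at day 10 against day 0 for each member (red) and the protein-coding genes beside it that were tested (blue), with 95% intervals; filled points have an adjusted p under 0.05. Hipk3 and Blcap lie on the right at 1.84 and 1.25, opposite Platr14 and Platr27, and no tested neighbour lies as far left as Platr14, Platr3, Platr4 and Platr27.

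Of 14 Platr genes outside the list that were tested in whole cells, 1 was lower and 1 higher at day 8 (9.62% and 20.2% of all genes), and 3 were lower and 2 higher at day 10 (16% and 27.7% of all genes), with a median log2 change of -0.00335 at day 10. The lower genes at day 10 were Platr22 (-0.94, adjusted p = 0.00131), Platr12 (-0.91, adjusted p = 0.00862) and Platr21 (-0.62, adjusted p = 0.00195). The higher ones were Platr25, annotated as protein-coding (2.37, adjusted p = 1.48e-07), and Platr7 (0.65, adjusted p = 0.011). In the fractions, 18 were tested, of which 4 were lower and 1 higher in the cytoplasm at day 12, and 4 lower and 3 higher in the nucleus. Platr15 was lower in the cytoplasm (-1.66, adjusted p = 4.38e-05) and nucleus (-2.85, adjusted p = 2.88e-06) but not in whole cells at day 10. The same held for Platr13, at -1.39 in the cytoplasm (adjusted p = 0.00968), -2.76 in the nucleus (adjusted p = 0.00022) and 0.685 in whole cells at day 10 (adjusted p = 0.317). The listed genes were picked with results of these data known, so the split between listed and other genes is a description.

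**Figure D5:**
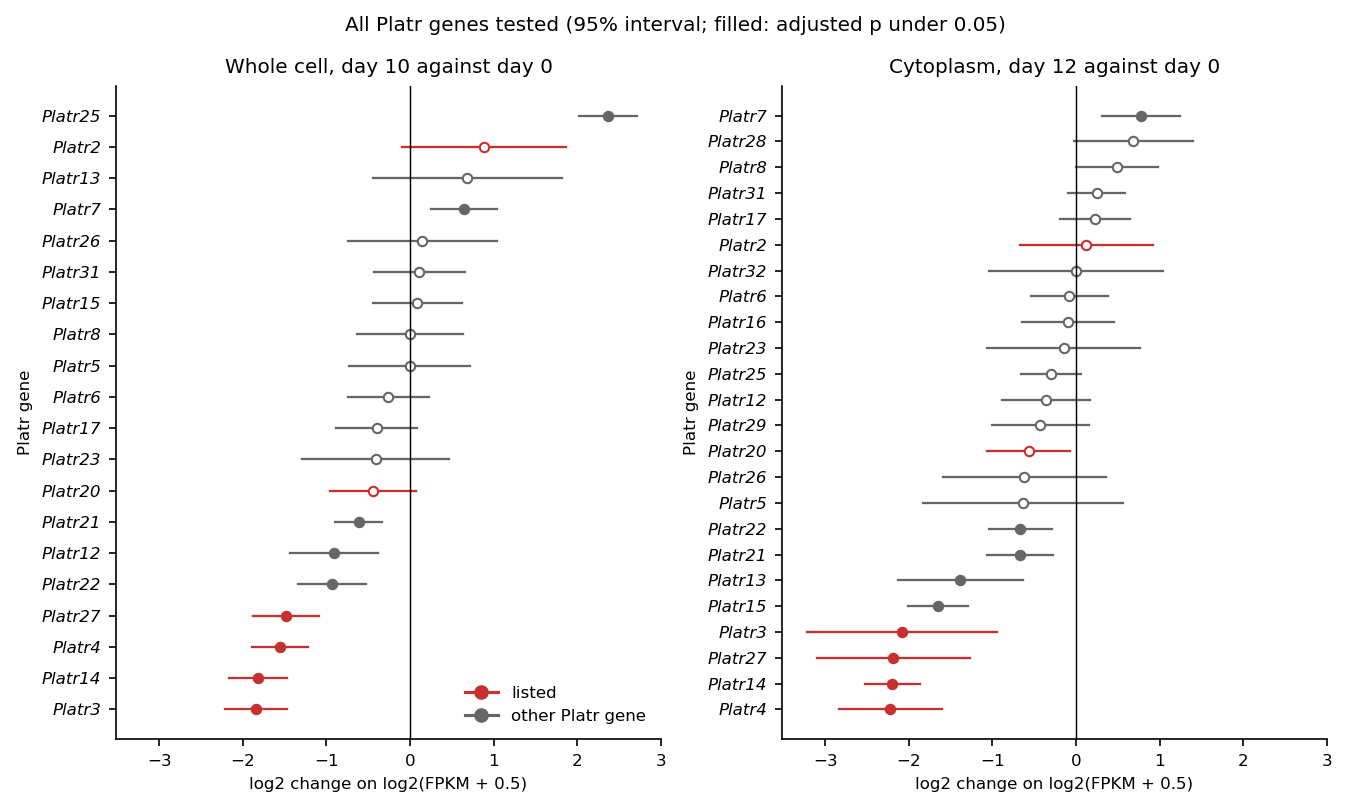
Log2 change of every Platr gene tested, in whole cells at day 10 (left) and in the cytoplasm at day 12 (right) against day 0, with 95% intervals, listed genes in red and the others in grey; filled points have an adjusted p under 0.05. Platr3, Platr14, Platr4 and Platr27 take the 4 lowest places in both panels, and Platr25 is highest in whole cells.

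Other genes of the pluripotent state moved in part at day 10, when 27.7% of all genes were higher and 16% lower. Of the 3 core factors, Pou5f1 stood at 332 ± 15.8 FPKM (SD, n = 3) at day 0 and 385 ± 20.1 at day 10 (adjusted p = 0.0699), Nanog at 211 ± 18.0 and 196 ± 6.67 (adjusted p = 0.567), and Sox2 at 169 ± 5.99 and 130 ± 3.66 (-0.38 ± 0.09 SE, adjusted p = 0.00401), so 1 of 3 was lower. Of 18 naive pluripotency genes, 7 were higher (38.9%) and 3 lower (16.7%, near the share of all genes), with Dppa3 at -2.21 (adjusted p = 2.34e-07) and the transcription factor gene Klf2 at 1.22 (adjusted p = 7.89e-06). Of 10 genes of primed pluripotency, 7 were lower and 2 higher, among the former Otx2 (-2.02, adjusted p = 9.81e-09), the DNA methyltransferase gene Dnmt3b (-1.54, adjusted p = 3.32e-06) and the growth factor gene Fgf5 (-1.49, adjusted p = 1.56e-05), with a median of -1.10 over the list. Of 11 other lncRNAs studied in stem cells, 4 were higher and 1 lower, the snoRNA host Gas5 at 1.92 (adjusted p = 2.58e-06) and Tunar at -0.71 (adjusted p = 0.00371).

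Summed levels of markers of other cell types moved over the same days. The summed FPKM of 9 fibroblast markers was 128 to 156 at day 0 (6 of 9 at 0.5 FPKM or more), 836 to 858 at day 10 (8 of 9) and 227 to 265 in the libraries labelled day 12 (6 of 9). In the cytoplasm it was 142 to 154 at day 0 and 535 to 567 at day 12. In the nucleus it was 299 to 591 and 465 to 511, with 5 of 8 tested lower and 2 higher (median -0.726). Of the 8 tested in whole cells, 6 were higher and 1 lower at day 10. The sum of 10 endoderm markers was 13.9 to 16.1 at day 0 and 40.2 to 42.9 at day 10 (6 of 10 at 0.5 FPKM on both days). The sum of 9 trophoblast markers was 149 to 200 at day 0, 521 to 556 at day 10 and 369 to 411 in the libraries labelled day 12. The sum of 7 mesoderm markers was 4.12 to 4.9 at day 0 (3 of 7 at 0.5 FPKM) and 7.99 to 8.44 at day 10 (5 of 7). By limma at day 10, 3 of 8 tested endoderm markers were higher and 1 lower. Of 6 tested mesoderm markers, 2 were higher and 0 lower. With 27.7% of all genes higher, these 37.5% and 33.3% are near the share of all genes. Of 8 tested trophoblast markers, 6 were higher and 1 lower. The endoderm marker Afp, the trophoblast marker Elf5 and the mesoderm marker Mesp1 were under 0.5 FPKM in every library, while the other markers of these lists made up the sums given. For 5 neuroectoderm markers the sum was 14.9 to 17.2 at day 0, 25.3 to 27.1 at day 10 and 16.6 to 16.9 in the libraries labelled day 12. Of these 5, 2 were higher and 1 lower by limma at day 10. Their cytoplasmic sum was 10.3 to 12.2 at day 0 and 22.4 to 23.2 at day 12. The sum of 9 embryonic stem cell markers was 2500 to 3130 in whole cells at day 0 and 2410 to 2610 at day 10. In the cytoplasm it was 3090 to 3150 at day 0 and 1960 to 2080 at day 12, without overlap, and 3 of 9 were lower and 0 higher by limma, with 16.6% of all genes lower. The part of these shifts in the members' changes was not tested.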

How the data were processed

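The authors deposited 1 FPKM value per gene and library, per the file headers. The submitters' processing notes list Cufflinks 1.3.0, TopHat2 2.0.9 and the mm9 build, without saying what each did; annotation, strand setting and multiply matching reads are not given. Groups came from the labels, which name replicates but no separate cultures, so p-values measure the spread between libraries, which may be technical. In the 3 whole cell files labelled day 12, identifiers of 122 of the authors' gene models differ in letter case and were joined regardless of it.

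FPKM values were compared with limma 3.58.1 in R 4.3.3 (eBayes with trend) on log2(FPKM + 0.5). A gene entered a fit if its mean reached 0.5 FPKM in 1 group, and Benjamini-Hochberg adjustment ran over every gene kept, 15991 in the whole cell fit (15 libraries), 17124 in the fraction fit (12 libraries) and 17609 in the fit of 27. Simulated data served to test this step. Members and gene lists were chosen with earlier results of these data known. Comparisons of days 8 and 10 with day 4, and of whole cell with fraction changes, were added after the values were seen.

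Named genes were the members, their nearest protein-coding neighbours, the 3 genes most correlated with each member (at least 2 FPKM in 1 group), the core factors, Dicer1, Malat1, Neat1, and up to 4 called members of a list. Coordinates and transcripts came from GENCODE M21 (GRCm38), start regions and microRNAs from RefSeq, and alignments from blastn 2.17.0. Alternatives covered pseudocounts of 0.1 and 1, no filter or one at 1 FPKM, median-of-ratios and quantile scaling, a block for replicate number, fits of only those groups being compared or lacking the libraries labelled day 12, and each library left out. Leaving out both nuclear libraries that stand apart was added after seeing the data. FPKM keeps no counts, so no counting intervals were given.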

Additional observations from a re-analysis of the deposited data

Results flagged for a closer look

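The change from day 0 to day 12 differed between whole cells and both fractions for 5 of 6 members, by limma's test of the difference itself in a fit of all 27 libraries. Of all 17609 genes tested, 19.1% were called higher in this way against the cytoplasm and 24% against the nucleus, so such differences were not confined to the members. The whole cell change minus the cytoplasmic change, on the log2 scale, was 2.03 for Platr14 (adjusted p = 6.94e-07), 2.03 for Platr27 (adjusted p = 0.00171), 1.97 for Platr4 (adjusted p = 8.08e-05), 1.65 for Platr3 (adjusted p = 0.0247) and 2.14 for Platr2 (adjusted p = 0.00991). Platr2 was at or near 0 in whole cells at day 0, and its value was 3.97 at a pseudocount of 0.1 FPKM and 1.46 at 1. The Platr3 value missed the threshold when any of 4 single libraries was left out (adjusted p of 0.0513 to 0.0668). The whole cell change minus the nuclear change was 2.20 for Platr14 (adjusted p = 2.99e-07), 2.12 for Platr27 (adjusted p = 0.0012), 1.44 for Platr4 (adjusted p = 0.00163), 2.62 for Platr3 (adjusted p = 0.000955) and 2.78 for Platr2 (adjusted p = 0.00142). The Platr2 value was 4.67 at a pseudocount of 0.1 FPKM and 2.05 at 1. Without both nuclear libraries that stand apart, the difference was 1.48 for Platr3 (adjusted p = 0.000351) and 1.32 for Platr27 (adjusted p = 0.00426). Relative to day 0, Dicer1 stood at 89.7% in whole cells with the label day 12, at 31.6% in the nucleus and at 13.6% in the cytoplasm.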

How the results depend on the processing

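Counts of members called stayed within 1.5 times the reported count in 332 of 345 alternatives, and single changes kept their direction and side of the threshold in 1838 of 1938, with 51 weaker, 26 stronger and 23 of the opposite sign. Some alternatives left out a library of neither group compared. There the size and direction of a change could not move, only its p, so these totals overstate how far the changes were tried. With only the groups compared in the fit, day 4 against day 0 gave 0 members called and labelled day 12 against day 0 gave 2. Nucleus against cytoplasm at day 12 gave 1 with no filter and 1 with quantile normalization, and 4 without both nuclear libraries that stand apart. Leaving out each library in turn gave 1 to 2 called for labelled day 12 against day 0 and 1 to 2 for nucleus against cytoplasm at day 12.

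The labels do not say whether replicate numbers pair the samples, and the samples were treated as unpaired. Same-numbered libraries had deviations correlated above 0.1 in 7 of 30 pairs in whole cells and 5 of 18 in the fractions. For libraries with different numbers it was 13 of 60 and 9 of 36. With 3 libraries per group these values cannot decide whether the samples were paired. With the replicate number as a block, 14 of 15 counts stayed within that margin, the other being nucleus against cytoplasm at day 12, with 1. Among single changes 81 of 84 kept their call.

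Without both nuclear libraries that stand apart, the change of the nucleus to cytoplasm ratio gave 1 member called, and took the opposite sign for Platr3 (0.166), Platr14 (0.106), Platr20 (0.244) and Platr27 (0.71), while nucleus against cytoplasm at day 12 was 0.058 for Platr27. The other changes of sign came when single libraries were left out, in changes that did not pass the threshold. Their ranges were -0.278 to 0.054 for Platr3 and -0.028 to 0.251 for Platr4 at day 4, -0.277 to 0.039 for Platr14 in the libraries labelled day 12, and -0.02 to 0.351 for Platr2 in the cytoplasm. For nucleus against cytoplasm they were -0.423 to 0.147 for Platr4 and -0.652 to 0.074 for Platr27 at day 0, and -0.554 to 0.058 for Platr27 at day 12. For the change of that ratio they were -0.369 to 0.101 for Platr20 and -0.377 to 0.379 for Platr27. The cause was not tested.

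Platr2 and Platr20, the members with the lowest levels in their highest group, were also those whose calls changed under the most alternatives. Read counts are not in the files, so the precision that depth gives was not computed.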

Other observations

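Chosen after their values were seen, the 3 tested genes of the Zscan4 family, markers of the 2-cell stage, were higher in both fractions at day 12 than at day 0. Zscan4f changed by 1.92 in the nucleus (limma adjusted p = 2.34e-05) and by 1.00 in the cytoplasm (adjusted p = 0.000921) on the log2 scale. The summed level of the 5 such markers with a row was low throughout, at 0.21 to 0.548 FPKM in the nucleus at day 0 and 3.21 to 4.8 FPKM at day 12. None of them reached a mean of 0.5 FPKM in either fraction at day 0, while 3 did in the nucleus at day 12. The tested genes thus entered the fit through day 12 alone, so a difference from day 0 was built in. Tcstv3 and Zfp352 were under 0.5 FPKM in every library.

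Platr15, outside the list and singled out after its values were seen, had the largest fall in the nucleus at day 12 among the 18 other Platr genes tested (-2.85, adjusted p = 2.88e-06 by limma). It was at 94.0, 115.4 and 137.1 FPKM in the nucleus at day 0 and at 17.99, 13.94 and 14.45 FPKM at day 12, while whole cells stood at 7.77, 11.98 and 9.71 FPKM at day 0 and 12.98, 11.22 and 7.53 FPKM at day 10. Its ratio of nucleus to cytoplasm changed by -1.199 on the log2 scale between the days (limma adjusted p = 0.0349). A fall in the nucleus without one in whole cells at day 10 was not particular to Platr15. Platr13 was at -2.76 in the nucleus (limma adjusted p = 0.00022) and at 0.685 in whole cells at day 10 (limma adjusted p = 0.317).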
